A study of Homo sapiens with 6 samples.

Results

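NF-κB transcripts were compared between NR1D1 KO and control MDA-MB-231 cells. The genes were the 5 subunit genes NFKB1, NFKB2, RELA, RELB and REL, the inhibitor genes NFKBIA and NFKBIE, and the feedback and signalling genes TNFAIP3, TNIP1 and TRAF1. They were chosen by symbol, and 7 of the 10 had a probe set named in the platform annotation used here, each with a single probe set, out of 14884 genes measured by name. NFKBIA, NFKBIE and TNFAIP3 had none and are not analysed here, so neither of the genes listed as inhibitors was measured. MDA-MB-231 is an established human breast carcinoma line of the triple-negative kind. RNA came from NR1D1 KO cells (3 arrays), labelled as a knockout of the gene of REV-ERBα, a nuclear receptor that binds heme and represses transcription in the circadian clock, and from control cells (3 arrays). Both groups had been kept for 72 h in 200 µM H2O2, so a difference present before the peroxide cannot be told apart from a different response to it. How the knockout was made, and whether it is 1 clone, is not given in the sources used here. The arrays of a group are titled as biological replicates, without word on separate cultures, and the p-values measure only the spread between these arrays, part of which may be technical.

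NF-κB is a family of dimeric transcription factors whose members share a Rel homology region that binds DNA. RELA, RELB and REL also carry transactivation domains, whereas NFKB1 and NFKB2 encode long precursors that are cut to DNA-binding subunits. In resting cells IκB proteins hold the dimers in the cytoplasm. In the canonical pathway, receptors such as the tumour necrosis factor, interleukin-1 and Toll-like receptors activate the IκB kinase complex, IκB is degraded, and mainly RELA dimers enter the nucleus. In the alternative pathway the kinase NIK, encoded by MAP3K14, drives the cutting of the NFKB2 precursor, whose product works with RELB. Several subunits, inhibitors and feedback regulators are themselves known NF-κB target genes. Basal-like breast cancer lines, MDA-MB-231 among them, are known for constitutive NF-κB activity.

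The promoters of these genes are shown because several hold κB-type sequence, and the members described below can be read against them. RefSeq promoter windows (GRCh38.p14, 250 bases before a transcript start and 50 from it on) were at hand for 8 of the 10 genes, in 15 windows, with none used for RELB or NFKBIE. The letters GGGNNTTTCC, a form of the κB motif, were searched on both strands. They occurred in 7 of the 15 windows, belonging to 6 of the 8 genes, and in 1.91% of all 35116 windows in the table. The windows of NFKB1, NFKB2, TNIP1 and REL that hold the motif are printed 5′ to 3′ on the gene's strand, with the match in capitals. Other forms of the κB motif were not searched and stay in lower case.
NFKB1, chr4:102501109-102501408, plus strand: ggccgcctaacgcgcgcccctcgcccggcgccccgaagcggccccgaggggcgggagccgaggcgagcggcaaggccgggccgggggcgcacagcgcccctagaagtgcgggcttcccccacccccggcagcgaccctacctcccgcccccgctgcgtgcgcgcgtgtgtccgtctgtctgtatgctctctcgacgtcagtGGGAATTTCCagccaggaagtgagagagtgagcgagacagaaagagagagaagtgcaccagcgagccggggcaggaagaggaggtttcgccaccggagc
NFKB2, chr10:102394328-102394627, plus strand: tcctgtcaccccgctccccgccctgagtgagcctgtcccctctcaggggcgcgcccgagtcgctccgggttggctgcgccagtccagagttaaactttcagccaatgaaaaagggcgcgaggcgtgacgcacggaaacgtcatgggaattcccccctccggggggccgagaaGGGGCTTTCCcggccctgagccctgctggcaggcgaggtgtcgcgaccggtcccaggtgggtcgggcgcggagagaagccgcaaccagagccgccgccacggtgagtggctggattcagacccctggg
NFKB2, chr10:102395455-102395754, plus strand: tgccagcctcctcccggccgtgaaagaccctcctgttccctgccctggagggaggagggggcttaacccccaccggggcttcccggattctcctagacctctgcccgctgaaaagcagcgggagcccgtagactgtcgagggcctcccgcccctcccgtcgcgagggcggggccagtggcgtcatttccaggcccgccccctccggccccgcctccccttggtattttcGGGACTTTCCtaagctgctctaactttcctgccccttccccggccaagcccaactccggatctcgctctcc
TNIP1, chr5:151080985-151081284, minus strand: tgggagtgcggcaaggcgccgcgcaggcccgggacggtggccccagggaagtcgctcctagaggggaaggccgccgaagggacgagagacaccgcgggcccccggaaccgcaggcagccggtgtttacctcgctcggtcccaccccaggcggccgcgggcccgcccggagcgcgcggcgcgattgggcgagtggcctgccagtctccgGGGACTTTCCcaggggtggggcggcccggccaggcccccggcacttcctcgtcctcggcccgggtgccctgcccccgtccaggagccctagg
REL, chr2:60881324-60881623, plus strand: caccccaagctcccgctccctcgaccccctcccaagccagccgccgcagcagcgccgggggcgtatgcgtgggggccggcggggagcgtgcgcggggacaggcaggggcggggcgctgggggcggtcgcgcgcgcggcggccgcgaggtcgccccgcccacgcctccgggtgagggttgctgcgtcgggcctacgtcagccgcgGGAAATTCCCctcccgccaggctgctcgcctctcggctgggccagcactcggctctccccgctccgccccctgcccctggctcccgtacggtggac
The NFKB1 match, GGGAATTTCC, began 49 bases before the transcript start. The matches of NFKB2 began 78 bases before one start and 21 before another, and that of TNIP1 42 before its start. REL carries the same letters as NFKB1, read on the other strand. NFKBIA and TNFAIP3 also held matches, whereas no window of RELA or TRAF1 did. AGGTCA, the core letters of the element that REV-ERBα is known to bind, occurred in 13.8% of all windows and in 0 of the 15 windows of these genes. With so few windows, the 0 is not read as a lack. A match is only a run of letters, and its absence says only that these letters are not in the window.

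Of the 7 measured genes 5 fell in NR1D1 KO cells, namely NFKB1, NFKB2, RELB, TNIP1 and TRAF1, and 0 rose. These 5 passed a threshold of 0.05 on limma's adjusted p, corrected by Benjamini and Hochberg's method over the 14884 genes. By the same rule 9.49% of all genes were called, 4.74% as lower and 4.74% as higher. When protein-coding genes alone were fitted the share called lower was 6.72%, and without the dimmest 50% of genes it was 11.5%. All 7 genes are in both of these sets. RELA and REL did not pass. The median log2 change of the 7 was -0.83, against 0.0039 over all genes. In 6 of the 7 genes all 3 NR1D1 KO values lay below all 3 control values, which was so for 13.6% of all genes. The 5 calls are the same genes under all 16 alternative settings tried. In RNA taken from a whole culture, fewer cells carrying a transcript and less of it per cell cannot be told apart.

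**Figure D1:**
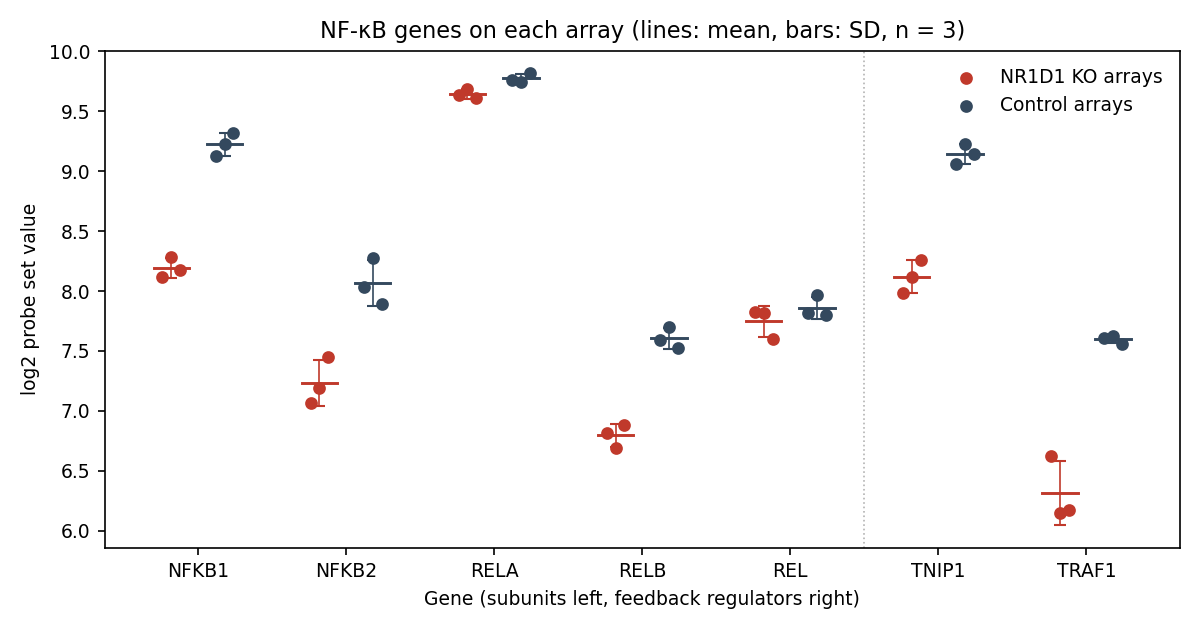
The vertical axis gives the deposited log2 probe set value and the horizontal axis the 7 measured genes, with 1 point per array, NR1D1 KO left and control right, lines at the mean and bars of 1 SD (n = 3 each). The groups lie apart for every gene except REL, and for RELA the gap between them is small.

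Among the subunits, NFKB1, whose precursor also acts as an inhibitor before it is cut, showed the largest change. Its log2 values were 8.12, 8.28 and 8.18 on the NR1D1 KO arrays, against 9.13, 9.22 and 9.32 on the control arrays. The highest knockout value lies well below the lowest control value. The log2 change was -1.03 (SE 0.0881), which is 2.04-fold lower in NR1D1 KO cells (limma adjusted p = 0.000319), and it was the 87th lowest change among all genes.

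The genes of the alternative pathway's dimer, NFKB2 and RELB, were both lower. NFKB2 measured 7.07, 7.19 and 7.45 in NR1D1 KO cells, against 8.03, 8.27 and 7.89 in control cells. Its values scatter more in both groups than those of NFKB1, with SDs of 0.193 in NR1D1 KO and 0.192 in control cells, yet the groups do not overlap. The change was -0.83 (SE 0.131), or 1.78-fold lower (limma adjusted p = 0.00635). RELB measured 6.82, 6.69 and 6.88 in NR1D1 KO cells, against 7.59, 7.70 and 7.52 in control cells. The spread within each group is small beside the gap between them. RELB was 1.75-fold lower, a change of -0.81 (SE 0.089, limma adjusted p = 0.00122).

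RELA, the main transactivating subunit of the canonical pathway, gave 9.63, 9.69 and 9.61 in NR1D1 KO cells, against 9.76, 9.74 and 9.82 in control cells. The knockout values all lie below the control values, but by a margin close to the spread within the groups. The log2 difference was -0.13 with a 95% interval of -0.30 to 0.044 (limma adjusted p = 0.367). REL, the subunit best known from lymphocytes, gave 7.83, 7.81 and 7.60 in NR1D1 KO cells, against 7.81, 7.97 and 7.80 in control cells, so the groups overlap. Its difference was -0.11 with a 95% interval of -0.33 to 0.11 (limma adjusted p = 0.551). The data do not show that RELA or REL was unchanged, but both intervals lie wholly above those of NFKB1, NFKB2 and RELB, whose upper ends were -0.83, -0.53 and -0.60.

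**Figure D2:**
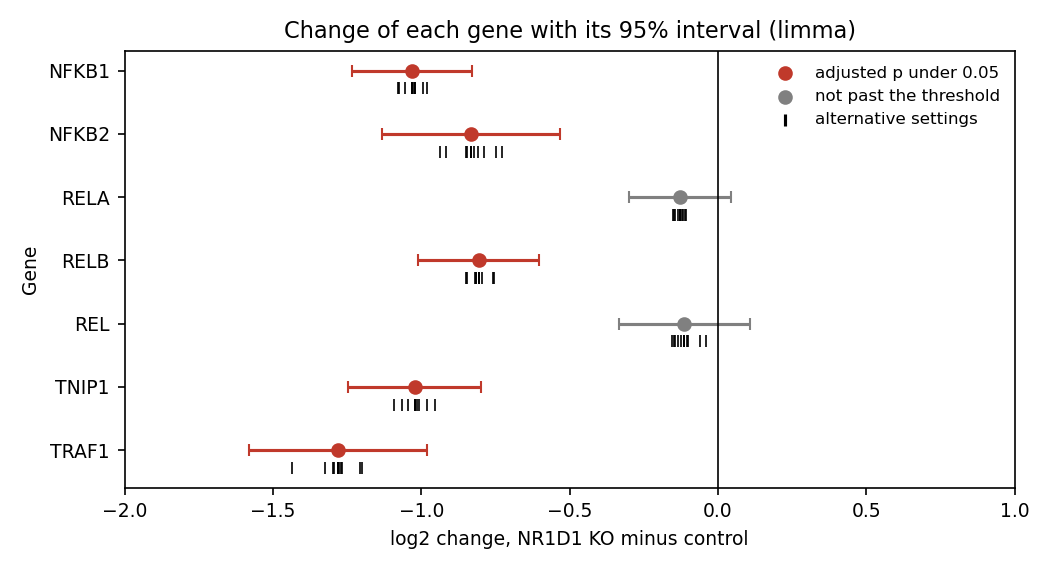
The horizontal axis gives the log2 change, NR1D1 KO minus control, with its 95% interval from limma (n = 3 each), and black ticks below each gene give the change under each alternative setting. NFKB1, NFKB2, RELB, TNIP1 and TRAF1 lie between -1.28 and -0.81 with intervals clear of 0, whereas the intervals of RELA and REL include 0.

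Whether a subunit changed by more than RELA was examined on the difference between the log2 values of both genes on the same array, where array-wide effects cancel. The size of such a difference on 1 array depends on the probes and has no meaning by itself, so only its shift between groups is read. For NFKB1 minus RELA it was -1.51, -1.40 and -1.44 in NR1D1 KO cells, against -0.63, -0.52 and -0.50 in control cells. NFKB1 was thus lower relative to RELA on every NR1D1 KO array than on any control array, by 0.90 on average on the log2 scale. The shift was -0.70 for NFKB2 minus RELA and -0.68 for RELB minus RELA, again without overlap between groups. For REL minus RELA it was 0.015, with values of -2.01 to -1.81 in NR1D1 KO and -2.02 to -1.78 in control cells that overlap throughout. A two-sided exact permutation test gave p = 0.1 for each of the first 3 pairs, the smallest p that 3 arrays against 3 allow, and p = 0.9 for REL. Adjusted over the 4 pairs these were 0.133 and 0.9, and with 3 arrays a group this permutation test cannot pass the threshold of 0.05 for any pair.

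**Figure D3:**
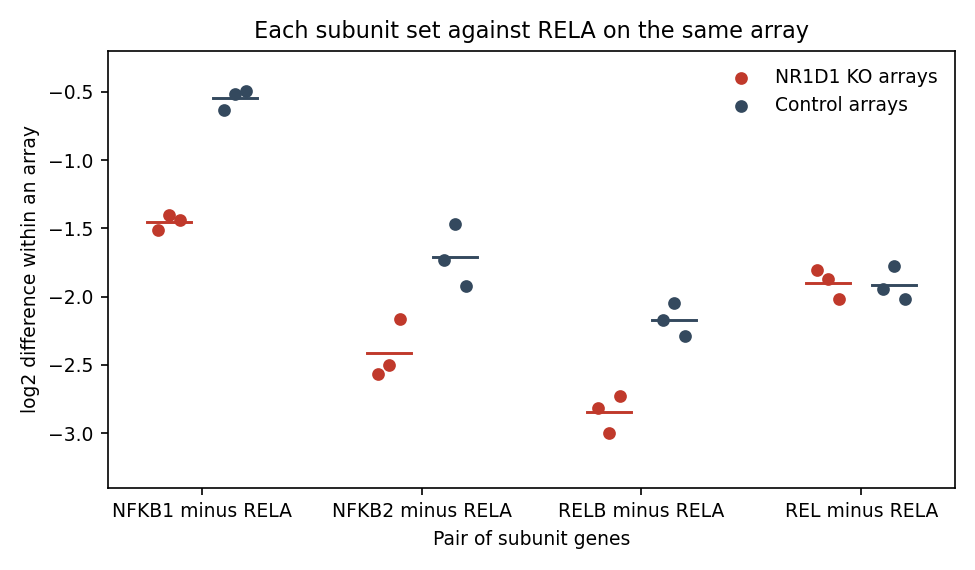
The vertical axis gives the log2 difference between a subunit gene and RELA on the same array, with 1 point per array, NR1D1 KO left and control right, and lines at the means (n = 3 each). The groups lie apart for NFKB1, NFKB2 and RELB and overlap for REL, where the means are -1.90 in NR1D1 KO and -1.91 in control cells.

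Both measured feedback and signalling genes fell. TRAF1, an adaptor at tumour necrosis factor receptors that is itself induced by NF-κB, had the largest change of the 7 genes. It measured 6.63, 6.15 and 6.17 in NR1D1 KO cells, against 7.61, 7.62 and 7.56 in control cells. The control arrays are nearly equal, and knockout replicate 1 is higher than the other 2 knockout arrays but still below every control. TRAF1 was 2.43-fold lower, a log2 change of -1.28 (SE 0.131, limma adjusted p = 0.000827), and the change was -1.44 without NR1D1 KO replicate 1. TNIP1 encodes a ubiquitin-binding partner of TNFAIP3 that restrains the pathway. It measured 7.98, 8.12 and 8.26 in NR1D1 KO cells, against 9.06, 9.23 and 9.14 in control cells. The groups do not overlap, and TNIP1 was 2.03-fold lower, a log2 change of -1.02 (SE 0.0971, limma adjusted p = 0.000565).

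Read against the promoters, the lower genes NFKB1, NFKB2 and TNIP1 have a window with the motif and the lower gene TRAF1 has none. REL has such a window and RELA has none, and neither gene passed the test. RELB, also lower, had no window to read. The 7 genes lie on 7 chromosomes (2, 4, 5, 9, 10, 11 and 19), so no pair of them are neighbours.

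The rest of the pathway was examined through lists of 56 genes by role, of which 35 were measured. Of these 12 fell and 1 rose, with a median log2 change of -0.26, while 4.74% of all genes fell and 4.74% rose. When protein-coding genes alone were fitted 13 pathway genes fell, beside 6.72% of the genes fitted. Without the dimmest 50% of genes, which removes some listed genes, 14 fell beside 11.5%. The lists, like the 7 genes, were chosen with earlier results of these data known, so the counts describe these samples and are not independent evidence of a direction.

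At the receptors, 4 of 10 listed genes were measured, and Toll-like receptors moved both ways. TLR2, the receptor of bacterial lipoproteins, measured 6.98, 6.90 and 6.96 in NR1D1 KO cells, against 8.57, 8.73 and 8.69 in control cells. It was 3.28-fold lower (limma adjusted p = 3.32e-05). TLR3, a sensor of double-stranded RNA, was 1.48-fold lower (adjusted p = 0.00687). TLR4, the lipopolysaccharide receptor, went the other way and was 1.69-fold higher, with 7.06, 7.05 and 6.90 in NR1D1 KO cells, against 6.22, 6.20 and 6.32 in control cells (adjusted p = 0.00122).

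Of 17 measured adaptor and upstream kinase genes 6 fell and 0 rose, beside 4.74% of all genes in each direction. IRAK2, a kinase-like protein of the interleukin-1 and Toll-like receptor complexes, gave 7.40, 7.40 and 7.65 in NR1D1 KO cells, against 8.55, 8.53 and 8.79 in control cells, and was 2.20-fold lower (limma adjusted p = 0.000564). RIPK2, the kinase that works with the NOD receptors, was 1.87-fold lower (adjusted p = 0.00164). BCL10, which joins receptor signals to the IκB kinase complex with MALT1, was 1.46-fold lower (adjusted p = 0.00472). IRAK3, which restrains Toll-like receptor signalling, was 1.32-fold lower (adjusted p = 0.032), a call that was lost whichever 1 of the 6 arrays was left out (adjusted p of 0.0528 to 0.119) and when its probe sets were averaged (adjusted p = 0.302).

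MAP3K14, chosen for mention after its values were seen, encodes the kinase of the alternative pathway. Its values were 7.62, 7.84 and 7.61 in NR1D1 KO cells, against 7.36, 7.34 and 7.36 in control cells. All knockout values lie above the control values, and the difference of 0.33 just missed the threshold (limma adjusted p = 0.0522), which it passed under 5 of 15 alternative settings.

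Among 11 measured genes of ubiquitin editing and messenger RNA decay 4 fell and 0 rose (all genes: 4.74% each way). ZC3H12A, an endoribonuclease gene whose product degrades inflammatory messenger RNAs, gave 6.52, 6.69 and 6.73 in NR1D1 KO cells, against 7.82, 7.81 and 7.75 in control cells. It was 2.22-fold lower (limma adjusted p = 0.000178). TNIP3, a relative of TNIP1, was 1.85-fold lower (adjusted p = 0.00175), although at log2 values of 4.04 to 4.13 in NR1D1 KO and 4.75 to 5.10 in control cells it lies below the array medians of about 5.2. No detection calls were at hand for so dim a probe set. CYLD, a deubiquitinase that restrains NF-κB, was 1.55-fold lower (adjusted p = 0.00953). RNF31, the catalytic subunit of the linear ubiquitin ligase, was 1.27-fold lower (adjusted p = 0.0396), and this call too was lost whichever 1 of the 6 arrays was left out (adjusted p of 0.0524 to 0.128).

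No measured kinase of the IκB kinase family and no other measured gene of the IκB family passed. TBK1, a related kinase, differed by -0.34 (limma adjusted p = 0.132) and CHUK, a catalytic subunit of the IκB kinase complex, by -0.15 (adjusted p = 0.522). BCL3, an atypical IκB protein, differed by -0.26 (adjusted p = 0.169). Of these lists only 2 of 5 and 1 of 4 genes were measured.

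**Figure D4:**
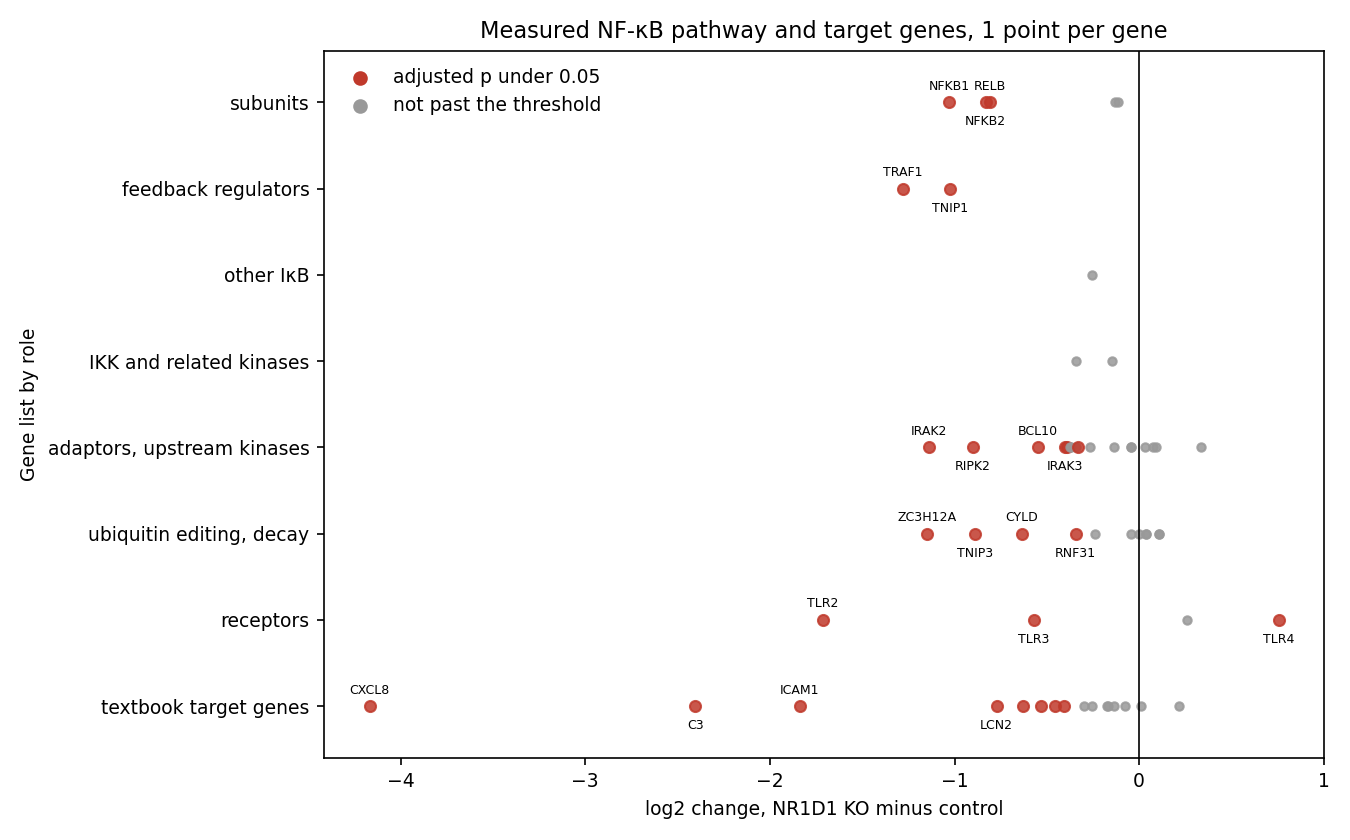
The horizontal axis gives the log2 change, NR1D1 KO minus control, of each measured gene, in rows by role, red where the limma adjusted p is under 0.05 and grey otherwise. The called subunit and feedback genes lie between -1.28 and -0.81, TLR4 at 0.76 is the only called gene to the right of 0, and CXCL8 at -4.17 lies farthest to the left.

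Of 16 measured genes that textbooks list as NF-κB targets, 8 fell and 0 rose, with a median log2 change of -0.35. Over all genes 4.74% fell and 4.74% rose. Among protein-coding genes alone 8 target genes fell beside 6.72% of the genes fitted, and without the dimmest 50% of genes 7 fell beside 11.5%. The falls ranged widely. CXCL8, a neutrophil chemoattractant, changed by -4.17, the complement gene C3 by -2.40, the adhesion receptor gene ICAM1 by -1.84 and LCN2, which encodes the iron-carrier-binding lipocalin 2, by -0.77 (limma adjusted p of 2.59e-07, 5.23e-05, 5.23e-05 and 0.0103). CXCL8 lay at 4.12 to 4.27 on the NR1D1 KO arrays, below the array medians and as dim as TNIP3 there, against 8.28 to 8.44 on the control arrays. Without detection calls its change is best read as a lower bound on the size of the fall. C3 lay at 5.27 to 5.57 on the NR1D1 KO arrays, close to the array medians, against 7.60 to 8.01 on the control arrays. The size of its fall may be understated too. The 8 target genes that did not pass had differences from -0.30 to 0.21. Several of these, such as TNF and PTGS2, were dim on all arrays, with means of 4.76 and 3.58 in NR1D1 KO and 4.90 and 3.36 in control cells. BCL2L1 and CD83 were not dim. BCL2L1 averaged 10.73 in NR1D1 KO and 10.72 in control cells, a difference of 0.0094 with a 95% interval of -0.17 to 0.19. CD83 averaged 7.47 in NR1D1 KO and 7.63 in control cells (limma adjusted p = 0.327).

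Across the whole series, the array medians lay between 5.18 and 5.22, and the correlation of arrays was 0.985 to 0.988 inside a group and 0.980 to 0.983 across groups. The annotation used here names 0 probe sets for NR1D1, so the knockout could not be checked on its transcript. The line's markers VIM, CD44, AXL and MSN were bright on all arrays, at log2 values of 8.97 or more. VIM was 1.27-fold higher (limma adjusted p = 0.0337) and CD44 1.28-fold lower (adjusted p = 0.0324) in NR1D1 KO cells, and their part in the results was not tested. By contrast, ESR1 and PGR, hormone receptor genes that a triple-negative line should lack, averaged 5.19 and 4.05 in NR1D1 KO and 5.19 and 3.99 in control cells. Of 3 measured leukocyte markers 1 fell, the lysosomal gene CD68, with 10.28 to 10.53 in NR1D1 KO and 10.84 to 10.90 in control cells (limma adjusted p = 0.0167). CD14 and LYZ stayed at or below 5.06 on every array. The linear sum of these 3 markers was 1288 to 1529 in NR1D1 KO and 1880 to 1951 in control cells, nearly all of it CD68, and its part in the NF-κB results was not tested. Of 6 measured luminal epithelial markers 2 rose, KRT18 and EPCAM, and 1 fell, GATA3. The linear sum of the 6 was 1220 to 1307 in NR1D1 KO and 1044 to 1116 in control cells, and its part in the results was not tested either. Of the 2 fibroblast and 3 endothelial markers measured, 1 endothelial gene rose, KDR, from which nothing is read here.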

How the data were processed

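Per the labels' protocols, RNA was prepared with GeneChip whole-transcript kits and biotin. The table that the authors deposited holds 1 value per probe set and array, for 53617 probe sets. The deposited values run from 1.16 to 13.75 with nearly equal quantiles, so they were read as log2 values normalized between arrays. The table itself states no unit, and a wrong scale would change every fold. How scans became probe set values is not given in the sources used here. No further normalization was applied.

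The platform annotation gave 16098 probe sets 1 gene symbol each, and all 16098 matched RefSeq gene identifiers (GRCh38.p14), with 0 symbols updated. The other 37519 are unnamed here. The probe set with the highest mean stood for a gene, which left 14884 genes. NR1D1 KO and control arrays (3 each) were set against each other in limma 3.58.1 under R 4.3.3 (lmFit, eBayes, two-sided). P-values were adjusted by Benjamini and Hochberg's method over the 14884 genes, with a threshold of 0.05. No gene was filtered out. The fit was also run on simulated data with independent noise for each gene and fewer changed genes than were called here. That run does not cover variation shared between genes. The precision is limited by the number of arrays, with a median standard error of 0.101 for a log2 change. Arrays were grouped by their labels. Plots were made in Python 3.11.15 with matplotlib 3.10.9.

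The members and gene lists were chosen with earlier results of these data known. The text names every member and, from each other pathway list, the called genes of largest change (at most 4), or those of smallest p (at most 2) where the list had no call. Markers are named by level, as are some target genes that did not pass. Alternatives were a further quantile normalization, median centring of arrays, removal of the dimmest 25% or 50% of genes, mean probe sets, protein-coding genes only, a trended and robust prior, array weights, a replicate block, leaving out each array, a call at 1.5-fold with an unadjusted p, and each probe set of a member tested by itself.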

Additional observations from a re-analysis of the deposited data

How the results depend on the processing

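NFKB1, NFKB2, RELB, TNIP1 and TRAF1 stayed lower in NR1D1 KO cells under every alternative run. They passed the limma threshold on the adjusted p wherever it was applied, and RELA and REL stayed short of it. The call at 1.5-fold with an unadjusted p used another rule and gave the same 5 genes. The highest adjusted p among the 5 was 0.0368, for NFKB2. Leaving out single arrays gave changes of -1.08 to -0.98 for NFKB1, -0.94 to -0.73 for NFKB2 and -1.44 to -1.20 for TRAF1. The count of all genes called was less stable. It was 723 to 1049 when 1 array was left out, against 1412 with all, with 789, 859 and 723 without control replicate 1, 2 or 3 and 813 without NR1D1 KO replicate 2. Fewer arrays leave less to estimate the spread from. At 1.5-fold with an unadjusted p the count was 558 genes, of which 323 were lower (2.17% of all genes). Among the lower genes were 6 pathway genes and 5 target genes. Without single arrays the lower pathway genes numbered 8 to 12, beside 2.6% to 3.57% of all genes called lower. The higher pathway genes were 2 without the dimmest 25% or 50% of genes, among protein-coding genes only, with a trended robust prior and with array weights, with MAP3K14 added to TLR4 in each. The difference REL minus RELA, 0.015 with all arrays, ran from -0.037 to 0.084 when 1 array was left out and changed sign without control replicate 1 or 3 or NR1D1 KO replicate 1. For 19 other genes followed by name under the alternatives, 17 of 282 values lost the threshold, all of them for IRAK3 and RNF31. RNF31 lost it also with median centring and with array weights, at a limma adjusted p = 0.0503 in each. The 6 values that gained it were for MAP3K14 and TBK1. Pathway genes that are not named are outside this count.

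Whether replicate numbers pair the arrays is not given by the labels. Same-numbered arrays of both groups correlated at 0.055, 0.068 and -0.11 in their deviations from the group means. Arrays of different number ranged from -0.13 to 0.079. These values show no pairing, but with 3 arrays a group they cannot exclude one. With the replicate block 1050 genes were called, the same 5 members among them. The lower pathway genes were 8, against 12 without the block, beside 3.71% and 4.74% of all genes called lower. The calls lost were those of IRAK3 (limma adjusted p = 0.0793), RNF31 (adjusted p = 0.08) and of pathway genes not named here. With same-numbered pairs the 3 shifts against RELA had an exact sign-flip p = 0.25, the smallest that 3 pairs allow.

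Without detection calls, the floor of dim probe sets is not known, so no gene was called absent.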
